A study of Homo sapiens with 6 samples.

Results

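The genes described here are those of human chromosome 18 that were expressed in HCT116 cells, taken in their order along the chromosome. A gene was a member when its brightest probe set with 1 symbol had a mean of at least 7 on the log2 scale over the 6 arrays, and 137 of the 264 measured genes of the chromosome met this and the naming rule. Another 106 lay below 7, and 21 were left out by symbol (LMAN1, BCL2, PMAIP1, NPC1, TYMS, GATA6 and the SMAD, DSG, DSC, SERPINB and ZNF genes, with 2 transcripts named after ZNF genes among them). In all, 18417 genes were measured, 11208 of them at 7 or above. The members were selected on their mean level over all 6 arrays. The difference between the lines was not itself a criterion, but near 7 it could decide whether a gene was a member. Of the members 6 averaged at least 7 in one line alone. The chromosome was picked with its differences already known. Counts and medians over the members are therefore descriptions.

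RNA came from a derived HCT116 line labelled as a mutant with altered DNA methylation (3 arrays) and from its parental HCT116 line (3 arrays), both grown in the same serum-containing medium. HCT116 is an established human colorectal carcinoma line. Which gene is mutated is not given by the labels, nor whether the mutant is a single clone, nor whether each array had its own culture. The p-values below thus rest on the variation among 3 arrays of a line, which may be technical. Of 10 markers of colorectal epithelium 6 averaged at least 7, among them EPCAM, KRT8, KRT18 and CDX2, whereas KRT20, VIL1, CEACAM5 and CDH17 lay below 7 in both lines. KRT8, KRT18 and CDH1 were lower in the mutant, at 12.79, 11.83 and 8.84, against 13.32, 12.71 and 10.20 in the parental line, and passed the test. Of markers of other cell types, the 3 of leukocytes and 3 of endothelium lay below 7, 1 of 4 of fibroblasts (COL1A1, 8.13 in the mutant and 8.30 in the parental line) and 1 of 2 of hepatocytes (APOA1, 7.29 in the mutant and 7.31 in the parental line) lay above it, and the fibroblast marker PDGFRB was higher in the mutant, at 6.33 against 6.06. Array medians were between 6.88 and 6.93, and arrays of one group correlated at 0.995 to 0.996 over all probe sets, against 0.988 to 0.989 between groups. A value is a robust multi-array average (RMA) on the log2 scale, so each whole unit of difference is a doubling; a gene is said to have changed when limma's test over all 33297 probe sets gave an adjusted p under 0.05.

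Chromosome 18 is one of the gene-poor human chromosomes. Its genes have no common function: the short arm (18p) holds, among others, a SRC-family kinase, parts of the kinetochore, centrosome and nuclear pore, vesicle transport factors and the chromatin protein SMCHD1, while the long arm (18q) carries readers of DNA methylation, ubiquitin ligases and the tumour suppressor SMAD4. Loss of the long arm is common in colorectal carcinoma. The members were divided into 4 stretches at landmark genes: 18p before ROCK1 (35 members), 18q11-q12 from ROCK1 to PSTPIP2 (37), 18q21 from ATP5F1A to VPS4B (46) and 18q22-q23 from TMX3 to PARD6G (19).

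The members of the short arm were lower in the mutant almost without a break, and those of the long arm were not. Of the 35 short-arm members 31 fell, 1 rose and 3 did not pass the test, with a median difference of -0.71, a mutant to parental ratio of 0.613. Of the 102 long-arm members 19 fell, 20 rose and the rest did not pass, with a median of 0.03. Over all 137 members 50 fell and 21 rose, and the median was -0.05. Among all 11208 genes at 7 or above 15.6% fell and 20.9% rose, 36.5% in either direction, with a median of 0.02. Over all 33297 probe sets, dim ones included, 8.17% fell and 10.4% rose, 18.5% in all. Leaving out mutant replicate 2 brought the members that rose to 12. With a minimum fold of 1.2 in the test 38 members changed, 3 of them higher, against 71 without it. A decrease of at least 1.5-fold was found for 21 members of the short arm and 11 of the long arm (4.81% of all genes at 7 or above), and an increase of that size for 0 and 2 (4.24%). In bulk RNA, fewer cells expressing a gene and less of its RNA per cell cannot be told apart.

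**Figure D1:**
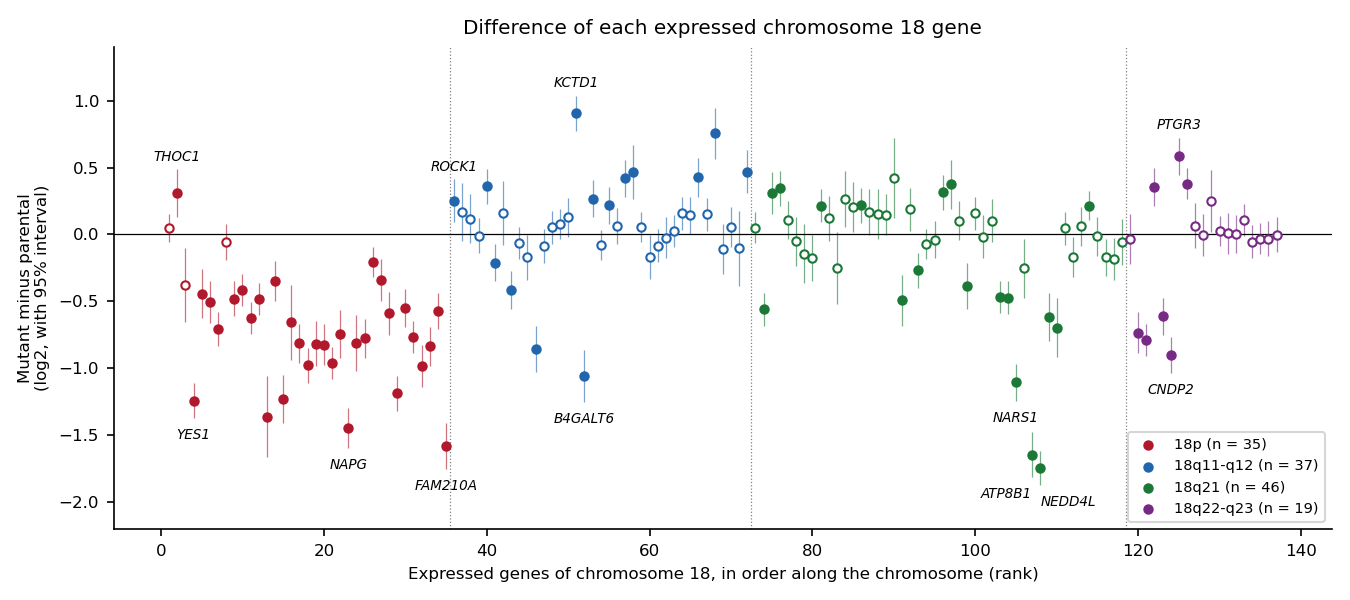
Mutant minus parental difference (log2, vertical axis, with the 95% interval of the limma fit) for each of the 137 expressed genes in order along chromosome 18 (horizontal axis, rank), coloured by stretch. Filled points passed the test and open points did not; from YES1 to FAM210A all short-arm points lie below 0, and the points from ROCK1 onward scatter on both sides of it.

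Promoter sequences are shown for the members with the largest changes that had an entry in the RefSeq promoter table (GRCh38.p14), 3 lower and 1 higher in the mutant, since the mutant line is labelled for its DNA methylation and methyl groups in mammalian DNA sit on CpG dinucleotides. Each window runs 5′ to 3′ over 300 bases, from 250 before the gene start to 50 after it, with every CpG in capitals. Only 1 window was taken per gene, and any other start a gene may have was not examined. NEDD4L lies at chr18:58046976-58047275, plus strand, FAM210A at chr18:13726509-13726808, minus strand, NAPG at chr18:10525777-10526076, plus strand, and KCTD1, the largest increase, at chr18:26657424-26657723, minus strand.
NEDD4L: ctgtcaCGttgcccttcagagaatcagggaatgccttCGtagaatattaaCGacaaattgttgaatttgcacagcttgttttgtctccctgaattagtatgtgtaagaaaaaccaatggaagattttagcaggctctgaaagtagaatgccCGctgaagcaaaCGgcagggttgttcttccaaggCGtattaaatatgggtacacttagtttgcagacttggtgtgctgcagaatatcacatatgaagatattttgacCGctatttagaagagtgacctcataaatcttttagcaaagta
FAM210A: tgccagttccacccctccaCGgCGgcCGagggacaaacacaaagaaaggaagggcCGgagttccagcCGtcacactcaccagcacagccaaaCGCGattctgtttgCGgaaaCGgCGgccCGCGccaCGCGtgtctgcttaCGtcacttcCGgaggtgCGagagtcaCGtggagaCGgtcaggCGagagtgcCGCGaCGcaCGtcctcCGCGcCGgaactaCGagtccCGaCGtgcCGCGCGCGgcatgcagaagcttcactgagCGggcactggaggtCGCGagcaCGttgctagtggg
NAPG: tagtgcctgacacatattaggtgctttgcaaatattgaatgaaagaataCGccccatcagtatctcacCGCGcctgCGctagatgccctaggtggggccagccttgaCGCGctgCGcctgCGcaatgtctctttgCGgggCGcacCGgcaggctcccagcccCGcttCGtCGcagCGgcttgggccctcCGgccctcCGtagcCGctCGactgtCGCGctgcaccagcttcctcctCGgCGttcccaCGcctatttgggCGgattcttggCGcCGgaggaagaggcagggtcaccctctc
KCTD1: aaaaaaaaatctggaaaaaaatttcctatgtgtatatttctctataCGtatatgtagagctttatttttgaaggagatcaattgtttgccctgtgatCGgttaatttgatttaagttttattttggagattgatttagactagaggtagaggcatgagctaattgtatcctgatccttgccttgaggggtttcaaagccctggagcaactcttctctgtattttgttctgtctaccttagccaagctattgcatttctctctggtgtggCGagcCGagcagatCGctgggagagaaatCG
The windows hold 7 CpGs in NEDD4L, 38 in FAM210A, 27 in NAPG and 6 in KCTD1. The CpG-rich windows of FAM210A and NAPG belong to genes that fell, and of the CpG-poor ones NEDD4L fell and KCTD1 rose.

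At the very end of the short arm USP14 and THOC1 were not lower in the mutant. USP14, a deubiquitinase bound to the proteasome and the first member, had 10.78, 10.78 and 10.81 on the mutant arrays, against 10.73, 10.75 and 10.74 on the parental arrays, a difference of 0.05 ± 0.04 (log2, SE; adjusted p = 0.536). THOC1, of the complex that links transcription to messenger RNA export, had 9.20, 9.16 and 9.30 on the mutant arrays, against 8.81, 8.90 and 9.02 on the parental arrays. It was the one short-arm member that rose (0.31 ± 0.07, adjusted p = 0.0331), a call lost under 5 of the 18 alternative fits that set no minimum fold. TYMSOS, a non-coding transcript of the opposite strand at TYMS, came next in order with 7.23, 7.15 and 7.21 on the mutant arrays, against 7.79, 7.57 and 7.35 on the parental arrays. Its groups did not overlap, but its difference of -0.37 did not pass (adjusted p = 0.0738).

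From the fourth member on, the mutant was lower. YES1, a tyrosine kinase of the SRC family, had 9.78, 9.67 and 9.66 on the mutant arrays, against 10.96, 10.93 and 10.95 on the parental arrays, and it fell by 1.24 on the log2 scale (SE 0.05; adjusted p = 7.68e-05). METTL4, an adenine methyltransferase, NDC80, a kinetochore component, and SMCHD1 also fell, and together with YES1 they made up 4 consecutive members called lower. EMILIN2, a glycoprotein of the extracellular matrix and the next in order, had 7.58, 7.69 and 7.70 on the mutant arrays, against 7.71, 7.70 and 7.74 on the parental arrays. Its groups overlapped, and its difference of -0.06 ± 0.05 did not pass (adjusted p = 0.575). The 27 members after it, LPIN2 to FAM210A, all fell, with a median of -0.78, the longest run of calls in one direction among the members.

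Vesicle and membrane transport genes of the short arm were the most reduced by median, with 6 of 6 lower and a median of -1.07. Of all 35 short-arm members 31 fell (88.6%), so the counts by role, here and below, are not results about the roles. The role lists were drawn up with earlier results of these data known. NAPG, which encodes the gamma form of the soluble attachment protein used in membrane fusion, had 8.06, 8.08 and 8.01 on the mutant arrays, against 9.41, 9.49 and 9.59 on the parental arrays (difference -1.45 ± 0.06, adjusted p = 7.55e-05). RAB12, a small GTPase of endosomal traffic, had 7.59, 7.66 and 7.64 on the mutant arrays, against 8.97, 8.72 and 8.88 on the parental arrays (difference -1.23 ± 0.07, adjusted p = 0.000238). In both genes the highest mutant array lay below the lowest parental array by more than the spread within either group. SPIRE1, an actin nucleator of vesicle transport, had 8.18, 8.21 and 8.09 on the mutant arrays, against 9.34, 9.32 and 9.37 on the parental arrays (difference -1.19 ± 0.05, adjusted p = 9.03e-05). The GTPase gene RAB31 (-0.96), the ESCRT subunit gene CHMP1B (-0.78) and VAPA (-0.74), a protein of endoplasmic reticulum contact sites, named after their values were seen, also fell. The 16 long-arm members of the same list had 2 lower and 3 higher, with a median of 0.02.

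All 5 short-arm genes of mitochondria and metabolism fell, by very different amounts. FAM210A, a mitochondrial protein and the last member before the centromere, had 7.99, 7.82 and 7.93 on the mutant arrays, against 9.45, 9.43 and 9.59 on the parental arrays (difference -1.58 ± 0.07, adjusted p = 8.70e-05), the largest decrease among the short-arm members. NDUFV2, a subunit of respiratory complex I, had 10.96, 10.97 and 10.91 on the mutant arrays, against 11.66, 11.80 and 11.81 on the parental arrays (difference -0.81 ± 0.06, adjusted p = 0.000434). The mitochondrial protease gene AFG3L2 (-0.59), the phosphatidate phosphatase gene LPIN2 (-0.48) and IMPA2 (-0.20), an inositol phosphatase, named after their values were seen, made up the rest. IMPA2 was the smallest of the decreases that passed among short-arm members, so that these 5 genes span the range of those decreases.

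Signalling genes of the arm likewise fell in 5 of 5 cases, where 88.6% of all the arm's members fell. Besides YES1, PTPN2, a tyrosine phosphatase that dampens JAK and STAT signalling, had 8.62, 8.59 and 8.74 on the mutant arrays, against 9.67, 9.56 and 9.67 on the parental arrays (difference -0.98 ± 0.06, adjusted p = 0.000299). PPP4R1, a regulatory subunit of a serine/threonine phosphatase, changed by -0.82 ± 0.06 (adjusted p = 0.000543). TWSG1, an extracellular modulator of bone morphogenetic proteins, and GNAL, a G protein alpha subunit, both named after their values were seen, changed by -0.82 and -0.81. The 5 differences ran from -1.24 to -0.81, over mean levels from 7.98 (GNAL) to 10.33 (YES1).

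The arm's genes of the cell division machinery fell in 3 of 3 cases: the centrosome genes CEP76 (-0.77 ± 0.05, adjusted p = 0.000308) and CEP192 (-0.57 ± 0.06, adjusted p = 0.00119), and NDC80 (-0.50). SEH1L, a nuclear pore subunit, had 9.51, 9.62 and 9.56 on the mutant arrays, against 10.32, 10.43 and 10.46 on the parental arrays (difference -0.84 ± 0.06, adjusted p = 0.000431). PSMG2, a chaperone of proteasome assembly, had 11.65, 11.56 and 11.74 on the mutant arrays, against 12.20, 12.19 and 12.20 on the parental arrays (difference -0.55 ± 0.06, adjusted p = 0.00184). USP14, the other short-arm member of the ubiquitin and proteasome list, did not pass, as given above. Among cytoskeletal genes 4 of 5 fell, with MTCL1, a microtubule cross-linker, at -0.66 ± 0.11 and the myosin light chain genes MYL12B and MYL12A at -0.62 ± 0.05 and -0.42 ± 0.05. MYL12A and MYL12B are near-identical copies that can share probes, so their values are uncertain as separate measurements; the MTCL1 call was lost under 1 of 18 alternatives. TUBB6, a beta tubulin whose paralogs may likewise share probes (-0.34), and ANKRD12, an ankyrin repeat protein (-0.98), both named after their values were seen, also fell.

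Chromatin and transcription genes of the arm were reduced too. SMCHD1, a structural chromatin protein that helps to keep the inactive X chromosome and imprinted genes silent, had 9.67, 9.65 and 9.63 on the mutant arrays, against 10.33, 10.32 and 10.43 on the parental arrays (difference -0.71 ± 0.05, adjusted p = 0.00048). METTL4 had 8.54, 8.77 and 8.70 on the mutant arrays, against 9.06, 9.10 and 9.18 on the parental arrays (difference -0.44 ± 0.08, adjusted p = 0.0102). TGIF1, a homeodomain repressor in TGF-beta signalling, changed by -0.48 ± 0.05 (adjusted p = 0.00144), and ZBTB14, a zinc finger factor, by -0.35 ± 0.06 (adjusted p = 0.0111). The non-coding transcript DLGAP1-AS1 had 6.86, 7.15 and 6.82 on the mutant arrays, against 8.16, 8.49 and 8.25 on the parental arrays (difference -1.36 ± 0.12, adjusted p = 0.000954) and was the one of 8 non-coding members that passed. Its mutant mean was 6.94 and its parental mean 8.30, so it reached the threshold of 7 through the parental arrays. For all 5 the groups were apart, as they were for 32 lower and 2 higher of the 35 short-arm members; over all genes at 7 or above the groups did not overlap in 61.5%, in 26.5% with the mutant lower.

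Among the members, the decrease ended between the arms. FAM210A, the last short-arm member, differed by -1.58 and ROCK1, the first long-arm member and a kinase of actomyosin contraction, by 0.25 ± 0.07 (adjusted p = 0.047). ROCK1 had 10.73, 10.64 and 10.52 on the mutant arrays, against 10.39, 10.35 and 10.40 on the parental arrays, and its call was lost under 9 of 18 alternatives. Of the 34 pairs of neighbouring members within the short arm, 33 had differences of one sign, against 20 of 36 in 18q11-q12, 26 of 45 in 18q21 and 12 of 18 in 18q22-q23. The median size of the step between neighbours was 0.25 in the short arm and 0.28, 0.21 and 0.18 in the long-arm stretches, so neighbours on the short arm shared a direction but not a size.

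Each mutant array showed the same contrast of the arms. The parental arrays scatter around 0 by construction, since their own mean was the reference. Taken as the median over short-arm members of the value minus the parental mean, the mutant arrays stood at -0.68, -0.67 and -0.73, against -0.04, -0.01 and 0.04 for the parental arrays. In 18q11-q12 the mutant arrays stood at 0.05, 0.06 and 0.08, against -0.02, -0.01 and 0.03 for the parental arrays. In 18q21 and 18q22-q23 the mutant and parental arrays overlapped. Over 11050 expressed genes of other chromosomes the mutant arrays stood at 0.01, 0.02 and 0.04, against -0.03, 0.0044 and 0.02 for the parental arrays.

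**Figure D2:**
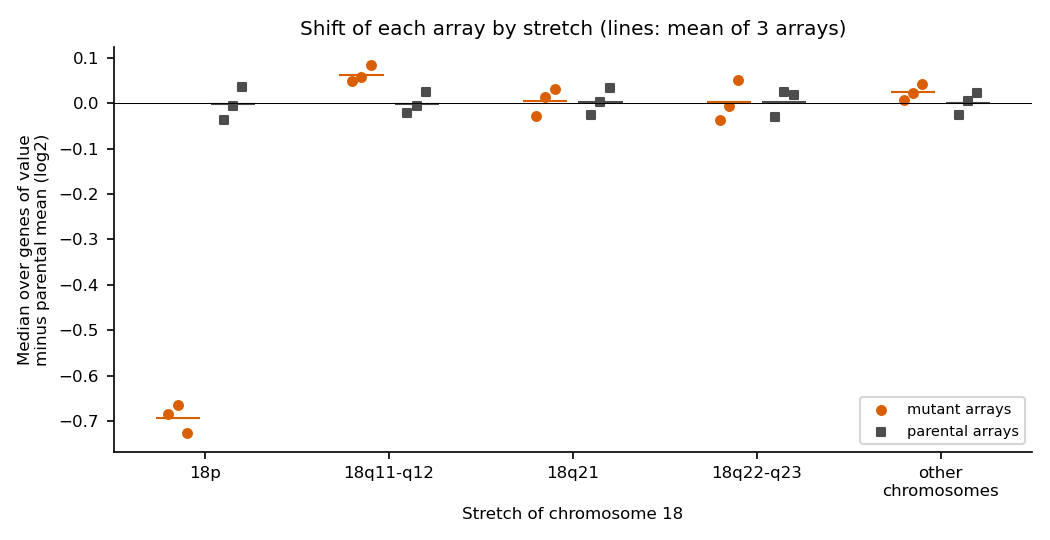
Median over genes of the value minus the parental mean (log2, vertical axis) on each mutant array (circles) and parental array (squares), for the 4 stretches of chromosome 18 and for expressed genes of other chromosomes; lines are means of 3 arrays. Short-arm medians of the mutant arrays lie between -0.73 and -0.67, apart from all other points.

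In 18q11-q12, 10 of 37 members rose and 4 fell, with a median of 0.06. With arrays centred on expressed genes of other chromosomes the median was 0.040. With a minimum fold of 1.2 in the test 4 members changed, against 14 without it. By share 27.0% rose and 10.8% fell, against 20.9% and 15.6% of all genes at 7 or above. In either direction the shares were 37.8% and 36.5%. The 8 expressed genes of the stretch left out by symbol had 2 higher and 4 lower. KCTD1, a nuclear protein that represses AP-2 transcription factors, had 8.60, 8.63 and 8.55 on the mutant arrays, against 7.62, 7.73 and 7.72 on the parental arrays (difference 0.91 ± 0.05, adjusted p = 0.000228), the largest increase among the members. B4GALT6, which makes lactosylceramide, had 7.73, 7.77 and 7.53 on the mutant arrays, against 8.70, 8.81 and 8.69 on the parental arrays (difference -1.06 ± 0.08, adjusted p = 0.000508). KCTD1 and B4GALT6 are consecutive members and moved in opposite directions by about as much. They are not adjacent genes: DSC3, DSC2 and DSG2, expressed but left out by symbol, lie between them. These genes were lower in the mutant, by differences of -1.95, -0.76 and -0.29. TTC39C, named after its values were seen, changed by -0.85 on its brightest probe set (adjusted p = 0.000693), while its second probe set gave -0.09 (adjusted p = 0.372).

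The other increases of this stretch were smaller. KIAA1328 had 7.23, 7.48 and 7.44 on the mutant arrays, against 6.66, 6.57 and 6.65 on the parental arrays. Its difference was 0.76 ± 0.08 (adjusted p = 0.00162). It was the dimmest member, with a mean just above 7 that it reached through the mutant arrays. Its second probe set averaged 6.71, below the threshold, and gave a smaller increase of 0.51 (adjusted p = 0.00676). Its membership and the size of its increase thus rest on the brighter probe set. Where the probes of either set align in the genome was not checked. PSTPIP2, an F-BAR protein that shapes membranes, stood at 0.47 ± 0.07 (adjusted p = 0.00482), and FHOD3, a formin, at 0.43 ± 0.06 (adjusted p = 0.00487). They were the 2 of 3 long-arm members of the cytoskeleton list that rose, and TPGS2, the other, differed by 0.15 and did not pass (adjusted p = 0.0962). MAPRE2, a microtubule end-binding protein of the mitosis list, differed by 0.42 ± 0.06 (adjusted p = 0.00464). ABHD3, a phospholipase, differed by 0.36 ± 0.05 (adjusted p = 0.0065), INO80C, a subunit of a chromatin remodelling complex, by 0.47 ± 0.08 (adjusted p = 0.0115), TRAPPC8, a tether of transport vesicles, by 0.27 (adjusted p = 0.0214) and the signalling adaptor GAREM1 by 0.22 (adjusted p = 0.0465). The calls of TRAPPC8 and GAREM1 were lost under 6 and 8 of 18 alternatives. The remaining decreases, named after their values were seen, were those of SLC35D4, a solute carrier family member (-0.42), and of the ubiquitin ligase gene MIB1 of Notch signalling (-0.21, adjusted p = 0.0481).

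In 18q21, 11 of 46 members fell and 7 rose, and most of the decreases gathered in one place. By share 23.9% fell and 15.2% rose, against 15.6% and 20.9% of all genes at 7 or above. Without mutant replicate 2, 11 members changed, and 6 with the minimum fold of 1.2, against 18 otherwise. The 8 consecutive members from ONECUT2 to SEC11C, a run picked out after the values were seen, had 7 lower and a median of -0.66. The other 38 members of 18q21 had 4 lower and 7 higher and a median of 0.08. ZNF532, left out by symbol, lies inside this run and did not pass (-0.09, adjusted p = 0.371). The 8 expressed genes of 18q21 left out by symbol had 3 lower and 2 higher. NEDD4L, a ubiquitin ligase that removes ion channels from the cell surface, had 8.26, 8.29 and 8.27 on the mutant arrays, against 9.96, 10.02 and 10.09 on the parental arrays (difference -1.74 ± 0.05, adjusted p = 2.17e-05), the largest change of any member. ATP8B1, a phospholipid flippase of the apical membrane and the member before NEDD4L, had 7.52, 7.73 and 7.67 on the mutant arrays, against 9.33, 9.25 and 9.27 on the parental arrays (difference -1.64 ± 0.07, adjusted p = 7.13e-05). In both genes the mutant arrays lay more than 1.5 units below the parental ones.

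NARS1, the cytosolic synthetase that charges transfer RNA with asparagine, had 10.71, 10.83 and 10.81 on the mutant arrays, against 11.84, 11.90 and 11.93 on the parental arrays (difference -1.10 ± 0.06, adjusted p = 0.000137). The remaining members of the run changed less: the protease gene MALT1 of NF-kB signalling by -0.62, the signal peptidase gene SEC11C by -0.69, the transcription factor gene ONECUT2 by -0.47 and the haem synthesis gene FECH by -0.47, with adjusted p-values of 0.00267, 0.00387, 0.00165 and 0.00191; MALT1, SEC11C and FECH were named after their values were seen. ATP8B1-AS1, an antisense transcript of ATP8B1, had a difference of -0.25 and did not pass (adjusted p = 0.12). Past SEC11C, RAX stood at 0.05 and did not pass (adjusted p = 0.624). LMAN1 and PMAIP1 lie in the same part of 18q21, but the rule leaves them out; LMAN1, a cargo receptor of the secretory pathway, had 7.26, 7.26 and 7.27 on the mutant arrays, against 11.70, 11.72 and 11.73 on the parental arrays (adjusted p = 3.84e-07). PMAIP1, a BH3-only inducer of apoptosis, had 9.30, 9.43 and 9.41 on the mutant arrays, against 10.26, 10.40 and 10.48 on the parental arrays (adjusted p = 0.000484).

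The readers of CpG methylation in 18q21 did not pass the test. MBD2, which binds methylated CpG and recruits a repressor complex, had 10.68, 10.64 and 10.69 on the mutant arrays, against 10.75, 10.72 and 10.75 on the parental arrays (difference -0.07 ± 0.05, adjusted p = 0.368). MBD1, another methyl-CpG binder, had 8.90, 9.05 and 8.95 on the mutant arrays, against 8.73, 8.76 and 8.90 on the parental arrays (difference 0.17 ± 0.07, adjusted p = 0.179), and CXXC1, which binds unmethylated CpG, differed by 0.15 ± 0.08 (adjusted p = 0.247). The 95% intervals of their differences were -0.18 to 0.04, -0.0043 to 0.34 and -0.03 to 0.34. SS18 and TAF4B of 18q11-q12, subunits of a chromatin remodeller and of a general transcription factor, stood at 0.08 and 0.13 and did not pass either. Of the 8 chromatin members 2 thus fell, both on the short arm, and 1 rose.

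Elsewhere in 18q21 small increases were found for POLI, a translesion DNA polymerase (0.31 ± 0.05, adjusted p = 0.0105), C18orf54 (0.38 ± 0.08, adjusted p = 0.0187), the SUMO ligase gene PIAS2 (0.31 ± 0.07, adjusted p = 0.0215), MYO5B, a myosin of apical recycling (0.22 ± 0.05, adjusted p = 0.0371), DYM, a Golgi protein (0.22 ± 0.05, adjusted p = 0.0295) and TNFRSF11A, the receptor RANK (0.21 ± 0.04, adjusted p = 0.0211). The calls of C18orf54, PIAS2, MYO5B, DYM and TNFRSF11A were lost under 4, 5, 8, 7 and 7 of 18 alternatives. HDHD2, a hydrolase (0.35), named after its values were seen, was the remaining increase. HAUS1 of the mitotic augmin complex (-0.56) and the malic enzyme gene ME2 (-0.49), named after their values were seen, fell, as did MEX3C, an RNA-binding ubiquitin ligase (-0.27, adjusted p = 0.0198), whose call was lost under 5. ATP5F1A, the alpha subunit of mitochondrial ATP synthase and the first member of the stretch, and VPS4B, the last, stood at 0.05 and -0.05 and did not pass.

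In 18q22-q23, 4 of 19 members fell and 3 rose, and all 7 lay among the first 8 members. The share that changed, 36.8%, was close to the 36.5% of all genes at 7 or above. The 4 expressed genes of the stretch left out by symbol had 1 lower and 1 higher. The lower was ZNF516 (-0.62, adjusted p = 0.0106), which lies past these 8 members. CNDP2, a cytosolic dipeptidase, had 9.22, 9.22 and 9.25 on the mutant arrays, against 10.05, 10.15 and 10.19 on the parental arrays (difference -0.90 ± 0.05, adjusted p = 0.000239). SOCS6, a suppressor of cytokine signalling, changed by -0.79 ± 0.05 (adjusted p = 0.000281) and RTTN, a protein of centriole assembly, by -0.73 ± 0.06 (adjusted p = 0.000786). CYB5A, which encodes cytochrome b5 and was named after its values were seen, changed by -0.61. PTGR3, a prostaglandin reductase next to CNDP2 in order, had 9.76, 9.72 and 9.82 on the mutant arrays, against 9.11, 9.23 and 9.21 on the parental arrays (difference 0.58 ± 0.06, adjusted p = 0.00132). TSHZ1, a zinc finger homeobox factor, and TIMM21, of mitochondrial protein import, differed by 0.38 ± 0.05 and 0.36 ± 0.06 (adjusted p = 0.00315 and 0.00869). The 11 members from MBP to PARD6G at the end of the chromosome did not pass, and their differences lay between -0.05 and 0.25.

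**Figure D3:**
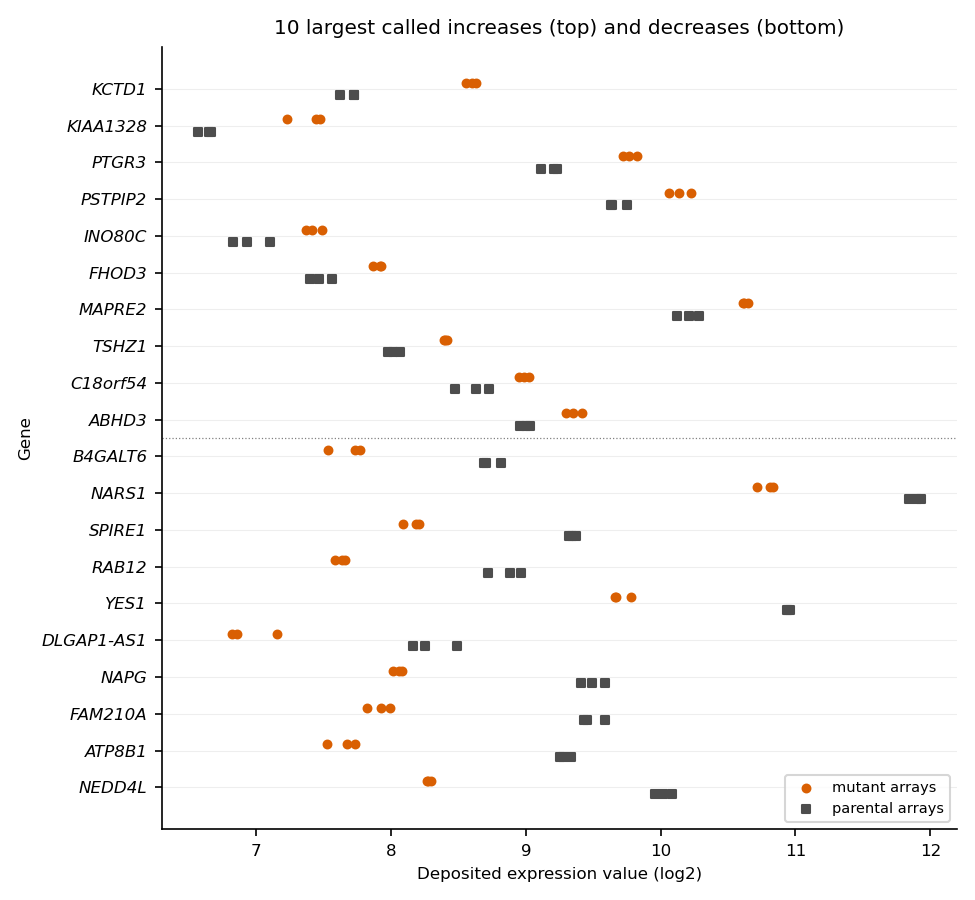
Deposited log2 value (horizontal axis) on each mutant array (circles) and parental array (squares) for the 10 members with the largest called increases (top) and the 10 with the largest called decreases (bottom). The groups are apart in all 20, from KCTD1 (8.55 to 8.63 on mutant arrays, 7.62 to 7.73 on parental arrays) to NEDD4L (8.26 to 8.29 on mutant arrays, 9.96 to 10.09 on parental arrays). The 20 were picked on these same arrays for large called changes, which favours such separation. Over all genes at 7 or above the groups did not overlap in 61.5%.

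By role, the lists held members of both arms, and they were drawn up with earlier results of these data known. Among all genes at 7 or above 15.6% fell and 20.9% rose, 36.5% in either direction. The counts by list are descriptions and not results about the roles. Of 22 membrane trafficking members 8 fell, 3 rose and 11 did not pass (median -0.07). Of 18 members of mitochondria and metabolism 9 fell and 4 rose (median -0.19), of 13 kinases, phosphatases and signalling genes 6 fell and 3 rose (-0.17), and of 11 mitosis, centrosome and DNA repair genes 5 fell and 2 rose (0.10). RNA processing and translation had 3 of 15 lower and 1 higher (-0.03), transcription factors 3 of 12 lower and 2 higher (-0.02), ubiquitin and proteasome 4 of 8 lower and 1 higher (-0.15), and cytoskeleton, matrix and adhesion 4 of 8 lower and 2 higher (-0.20). The chromatin list had 2 of 8 lower and 1 higher (0.10), and none of the 3 transporter and channel members passed (0.03). In each list with short-arm members their median lay below that of the list's long-arm members, for example -0.82 against 0.11 for signalling and -0.59 against 0.05 for mitochondria and metabolism.

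Genes of the short arm that the membership rule did not use gave a mixed picture. TYMS, which makes thymidylate and is left out by name, had 11.44, 11.52 and 11.55 on the mutant arrays, against 12.15, 12.24 and 12.21 on the parental arrays, a difference of -0.70 (adjusted p = 0.000558). The 26 short-arm genes below 7 had 4 lower and 1 higher and a median of -0.04 (among all genes below 7, 4.69% fell and 4.83% rose, 9.52% in all). The median of their mean levels was 5.45. One of them was PTPRM, a receptor tyrosine phosphatase, which had 5.59, 5.92 and 5.78 on the mutant arrays, against 7.68, 8.01 and 8.02 on the parental arrays. It was the largest decrease of any measured short-arm gene (-2.14, adjusted p = 0.000226), is named after its values were seen, and fell below the threshold through its mutant values. Second probe sets measured 3 short-arm members again, and 6 of 6 were lower: 1 each for NDUFV2 and SMCHD1, and 4 for TGIF1, 3 of which lie close to the level of the member itself and may share probes with it. Of 6 further probe sets of long-arm members 2 were higher and none was lower, and none of these 12 was called against its member.

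At the threshold of 7, the members just inside were KIAA1328 (mean 7.004), CCDC68 (7.02) and ZBTB7C (7.06), with differences of 0.76, -0.38 and -0.14. Just outside were ANKRD29 (6.97), PRELID3A (6.91) and LIPG (6.87), with differences of 0.21, -0.23 and -1.29. LIPG is the gene of endothelial lipase. The calls of CCDC68 and PRELID3A, both lower, were lost under 3 and 6 alternatives. Of the 137 members 131 averaged at least 7 in both lines and 6 in one line alone. Those 6, with DLGAP1-AS1, INO80C, KIAA1328 and CCDC68 among them, had 2 higher and 2 lower.

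Set beside the other chromosomes, with every gene at 7 or above counted and none left out by name, chromosome 18 had the highest share of genes lower, with 59 of 158 (37.3%), followed by chromosome 17 with 231 of 712 (32.4%). Its median, -0.05, was second lowest of 23 after that of chromosome 17 (-0.07). Chromosome 18 also had the highest share of neighbouring genes with differences of one sign, 68.8% of 157 pairs, next to 67.2% on chromosome 9, whose median was 0.21, and 63.9% on chromosome 17; the others ran from 48.7% to 57.1%. For stretches of 35 consecutive expressed genes, a length taken from the short arm, the lowest median was -0.71 on chromosome 18, from THOC1 to FAM210A, against -0.48 on chromosome 17 and -0.40 on chromosome 13. On the other 20 chromosomes it was -0.18 or higher. No test was made of these differences between chromosomes.

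**Figure D4:**
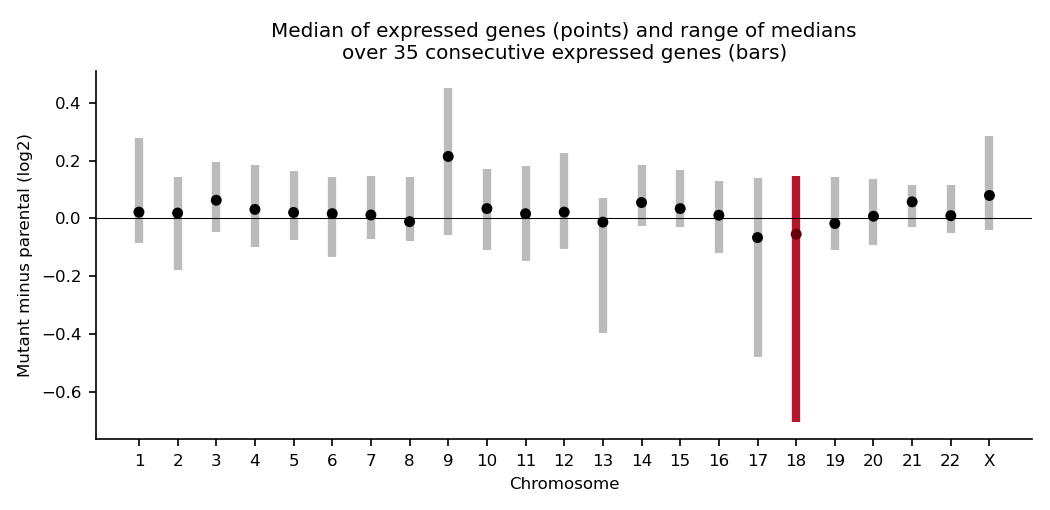
Median mutant minus parental difference (log2, vertical axis) of all genes with a mean of at least 7 on each chromosome (points), with the range from lowest to highest median over 35 consecutive such genes (bars). The bar of chromosome 18 (red) reaches -0.71, below those of chromosomes 17 (-0.48) and 13 (-0.40).

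Promoter CpG content was compared with the differences for the 117 members with a promoter entry. With 1 window per gene, a count describes that window and not other starts the gene may have. A CpG, the letters CG, reads the same on both strands. The window held a median of 30 CpGs in members and 27 in all expressed genes with an entry, against 14 in all 27305 promoters of the table, of which 95.8% held at least 1 CpG and 56.0% at least 10. Windows of short-arm members had a median of 30, and those of 18q11-q12, 18q21 and 18q22-q23 had 26, 27 and 40.5. Long-arm members that fell had a median of 26 CpGs, those that rose 34 and those that did not pass 28. On the short arm SPIRE1, PTPN2 and DLGAP1-AS1, with 0, 1 and 4 CpGs, fell as did MTCL1 and PPP4R1 with 59 and 56. Across members, CpG count and difference correlated at 0.06 (Pearson) and 0.07 (Spearman, n = 117 genes), at -0.06 and -0.23 on the short arm (n = 33) and at 0.18 and 0.22 on the long arm (n = 84); genes are not independent replicates, and these weak values are descriptions. The DNA methylation of these windows was not analysed here.

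**Figure D5:**
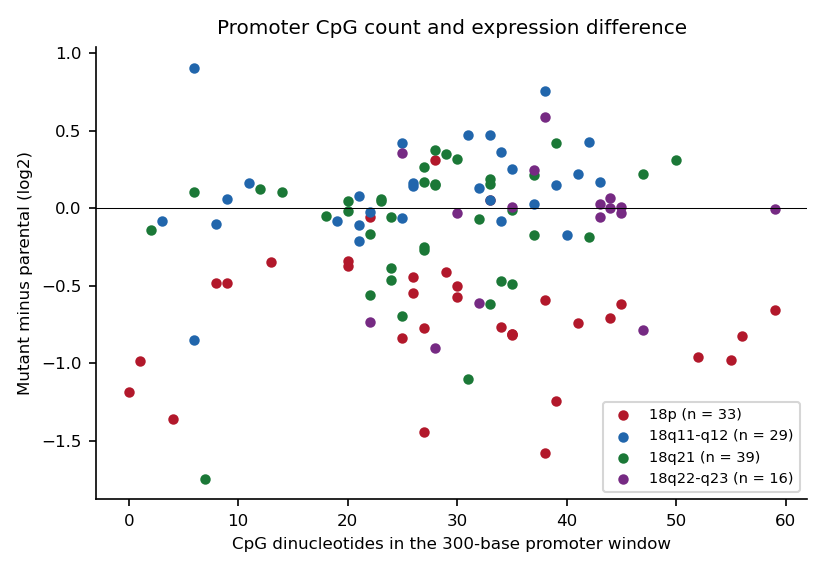
Number of CpG dinucleotides in the 300-base promoter window (horizontal axis) and mutant minus parental difference (log2, vertical axis) for 117 members, coloured by stretch. Short-arm members other than THOC1 and USP14 lie below 0 from 0 to 59 CpGs.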

How the data were processed

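The authors deposited log2 values for each array and probe set. The submitters' processing notes name RMA and Partek. Their versions and the build were not given in the sources used here. The RMA method corrects background, equalizes the arrays' distributions and summarises probes. It thus removes differences in total RNA and compresses changes of dim genes. The array number limits the precision.

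Of 33297 probe sets 19460 had 1 symbol, 1754 several and 12083 none in the platform annotation; 19429 matched the RefSeq gene table of GRCh38.p14, which gave chromosome and order. Each gene took its brightest probe set. Mutant minus parental was tested with limma 3.58.1 (lmFit, eBayes, two-sided, Benjamini-Hochberg over all probe sets, adjusted p under 0.05) in R 4.3.3, and tested on simulated data. Tables and figures were made in Python 3.11.15 (pandas 2.3.3, numpy 2.4.6, matplotlib 3.10.9).

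The rule named the 10 largest called changes each way, all chromatin members, up to 3 called members per role list and direction, the ends of the stretches and genes at the threshold. Members and lists were chosen with earlier results of these data known. The alternatives covered normalization, dim filters, variance models, array weights, blocking, a minimum fold of 1.2, probe set choice, membership and each array left out.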

Additional observations from a re-analysis of the deposited data

How the results depend on the processing

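No call of a named gene turned its direction (64 genes). Of 52 called, 27 stayed so under all 19 alternative fits, 25 were lost with a minimum fold of 1.2 and 13 under at least 1 of the other 18. That fold, stricter by construction, gave 1743 probe sets called (6166 without it), 38 members, 3 higher, 4 in 18q11-q12 and 6 in 18q21. The short-arm median was -0.74 with the mean over each gene's probe sets (which gives no count of probe sets called), and -0.61 and -0.77 with members from a mean of 6 and of 8. From 8, the 18q21 median was 0.018. With arrays centred on expressed genes of other chromosomes the 18q11-q12 median was 0.040. Omitting single arrays gave 4037 to 4644 probe sets called (4037 without mutant replicate 2, 4109 without parental replicate 2), 57 to 63 members, 12 to 15 higher, 11 to 15 in 18q21, short-arm medians from -0.76 to -0.67 and 18q11-q12 medians from 0.056 to 0.092. Same-numbered arrays did not deviate together (correlations of 0.04, -0.01 and 0.0027). With 3 arrays per group this cannot settle whether the numbers mark pairs, and the labels do not say. With the number as a replicate block 4365 probe sets and 58 members were called, 13 higher and 11 in 18q21. The causes of these shifts were not tested.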
